A study of Mus musculus with 56 samples.

Results

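The Rbfox genes (Rbfox1, Rbfox2, Rbfox3), the Nova genes (Nova1, Nova2) and Qk are 6 genes for RNA-binding proteins that regulate alternative splicing. They were taken by symbol from every deposited gene table, 6 of 23261 gene identifiers in all. Their skipped exons were taken from the 11 deposited tables of skipped exon events, 220 of 344365 entries, which cover 35 distinct exons. Wild-type (WT) and Fmr1 knockout (Fmr1 KO) mice were compared in 3 brain regions (cortex, hippocampus, cerebellum) and in liver, muscle and testis, by 3 libraries per genotype and tissue. Fmr1 encodes FMRP, the RNA-binding protein lost in fragile X syndrome. N2a cells, a mouse neuroblastoma line, received a non-targeting siRNA (siNT, 2 libraries) or an siRNA against Fmr1 (siFmr1, 3 libraries). In a co-transfection experiment N2a cells received an siRNA together with a plasmid, in 5 groups of 3 libraries. The empty plasmid pcDNA went with each of siNT, siFmr1 and siMbnl1 (groups siNT pcDNA, siFmr1 pcDNA and siMbnl1 pcDNA). FLAG-tagged MBNL1 was the other plasmid, as a nuclear form given with siFmr1 (group siFmr1 nMBNL1) and a cytosolic form given with siMbnl1 (group siMbnl1 cMBNL1). MBNL1, or muscleblind-like 1, is another splicing regulator. Age, sex and strain of the mice were not used here, and every N2a group came from a single line. Nothing used here says whether libraries of a group came from separate animals or cultures, so p-values measure only the spread between these libraries.

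RBFOX proteins carry an RNA recognition motif that binds the hexamer UGCAUG in introns; a site downstream of an exon tends to favour inclusion and a site upstream to favour skipping. RBFOX1 is the form of neurons, heart and skeletal muscle, RBFOX2 is made in many tissues, and RBFOX3 is the antigen known as NeuN, a standard marker of mature neurons. NOVA proteins bind clusters of YCAY (Y is C or T) through KH domains and were first described in neurons. QK, the quaking protein of the STAR family, binds ACUAA-type sites and is best known for its part in myelin gene processing in oligodendrocytes.

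The 40-base and 43-base exons of Rbfox1 and the 43-base exon of Rbfox2 separated brain from muscle in these data. These lie near the end of the coding region. Their sequences are shown because the isoform results turn on them, beside the Rbfox2 40-base exon and the 93-base exons. All are from GENCODE transcripts on GRCm38, 5′ to 3′ on the transcript strand, and capitals mark bases of Rbfox2 or Rbfox3 that differ from the Rbfox1 exon of the same length. The 40-base exons lie at chr16:7363865-7363904 on the plus strand in Rbfox1 and at chr15:77094451-77094490 on the minus strand in Rbfox2.
Rbfox1 40-base exon: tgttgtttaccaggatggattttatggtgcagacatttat
Rbfox2 40-base exon: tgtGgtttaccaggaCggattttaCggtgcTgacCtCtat
The 43-base exons lie at chr16:7369801-7369843 in Rbfox1 and at chr15:77091812-77091854 in Rbfox2.
Rbfox1 43-base exon: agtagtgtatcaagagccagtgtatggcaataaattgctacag
Rbfox2 43-base exon: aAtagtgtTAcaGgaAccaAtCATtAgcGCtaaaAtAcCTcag
The 93-base exons, which encode part of the RNA recognition motif, lie at chr16:7292185-7292277 in Rbfox1, chr15:77105577-77105669 in Rbfox2 and chr11:118502842-118502934 on the minus strand in Rbfox3.
Rbfox1 93-base exon: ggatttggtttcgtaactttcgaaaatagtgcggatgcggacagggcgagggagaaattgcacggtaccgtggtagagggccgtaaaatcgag
Rbfox2 93-base exon: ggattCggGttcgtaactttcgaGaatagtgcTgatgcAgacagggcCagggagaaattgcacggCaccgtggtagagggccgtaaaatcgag
Rbfox3 93-base exon: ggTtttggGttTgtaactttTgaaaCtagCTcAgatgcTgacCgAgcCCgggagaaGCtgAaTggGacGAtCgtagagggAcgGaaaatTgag
Between Rbfox1 and Rbfox2, 34 of 40 bases of the first exon were identical (85%), 27 of 43 of the second (62.8%) and 86 of 93 of the third (92.5%). Rbfox3 shared 69 of 93 bases (74.2%) with Rbfox1 and with Rbfox2. Each of these exons was coding along its whole length in every annotated coding transcript that holds it, and neither the 40-base nor the 43-base exon is a multiple of 3. No annotated transcript held both: 4 transcripts of Rbfox1 held only the 40-base exon and 2 only the 43-base exon, with the same 4 and 2 for Rbfox2, and 5896 and 2596 bases lay between the exons in the genome.

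Rbfox1 used the 40-base exon in brain and the 43-base exon in muscle. Inclusion is the authors' estimate for an exon and 1 pair of flanking exons. It is the fraction of the junction reads among these exons, corrected for length, that include the exon, and not a fraction of all transcripts of the gene. The table headers name the libraries only as replicate set 1 and replicate set 2, so for the tissues the sets are given side by side with no genotype. In the authors' deposited tables the Rbfox1 40-base exon was at 0.974, 0.985 and 0.976 in set 1 and 0.989, 0.986 and 0.968 in set 2 of cortex. Its inclusion in muscle was 0.013, 0.04 and 0.034 in set 1 and 0.02, 0.008 and 0.044 in set 2. Hippocampus averaged 0.975 and cerebellum 0.992 over both sets, so in the entry with most reads of each table every brain library lay near full inclusion and every muscle library near full skipping. A second muscle entry, flanked by the exon at 7375905 and so without the 43-base exon, averaged 0.326 in set 1 and 0.287 in set 2, from a mean of 8.33 and 5.67 junction reads per library. The 43-base exon was the mirror image: 0.989, 0.965 and 0.977 in set 1 and 0.97, 0.984 and 0.987 in set 2 of muscle, against a mean of 0.003 in cortex and 0.002 in cerebellum in the entries with a mean of 20 or more reads per library. The entries flanked by the exon at 7352932, among transcripts without the 40-base exon, averaged 0.067 and 0.111 in the 2 sets of cortex, 0.167 and 0.093 in hippocampus and 0 and 0.111 in cerebellum, from a mean of at most 5.33 junction reads per library. These were different tables with different flanking exons (the muscle entry for the 40-base exon is flanked by the 43-base exon at 7369801, the brain entries by the exon at 7375905), so the contrast between tissues is a description with no test.

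Rbfox2 showed the same muscle exon and a more mixed choice elsewhere. In the entry with most reads of each table, the Rbfox2 43-base exon averaged 0.949 in muscle and between 0.003 in the first N2a experiment and 0.067 in liver in the other 8 tables with a mean of 20 or more junction reads per library. In second entries with other flanking exons it averaged 0.14 and 0.044 in the 2 sets of hippocampus, 0.069 and 0.035 in cerebellum and 0 and 0.187 in liver. Such entries reached up to 0.179 in a co-transfection set and were at 0.018 and 0.01 in the first N2a experiment. The Rbfox2 40-base exon was at 0.635, 0.638 and 0.578 in set 1 and 0.604, 0.597 and 0.636 in set 2 of cerebellum, the lowest mean of the 9 tables at 0.615. It averaged 0.759 in hippocampus, 0.811 in cortex, 0.823 in the first N2a experiment, 0.857 in liver and 0.822 to 0.879 in the co-transfection tables. In muscle, which did not reach 20 reads per library in both sets, it averaged 0.804 in set 1 and 0.599 in set 2. This exon did not separate muscle from brain. Cortex and liver libraries spread widely, from 0.615 to 0.934 and from 0.613 to 0.922, and overlapped the hippocampus libraries (0.712 to 0.836), whereas every cerebellum library was below every hippocampus library. These values are from the entry with most reads of each table. In a second entry with other flanking exons the 40-base exon averaged 0.936 and 0.986 in the 2 sets of cerebellum and 0.956 and 0.979 in hippocampus, near full inclusion in both.

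The exon of the RNA recognition motif was skipped most in muscle and cerebellum. In Rbfox2 it was included at 0.81, 0.692 and 0.776 in set 1 and 0.724, 0.677 and 0.686 in set 2 of muscle. Cerebellum libraries lay between 0.733 and 0.801, while the means were 0.923 in cortex, 0.927 in hippocampus and 0.977 to 0.988 in the N2a tables. Muscle and cerebellum libraries overlapped each other and did not overlap those of hippocampus (0.858 to 0.987) or of any N2a table. A transcript without this exon is known to give an RBFOX protein that no longer binds RNA well. The homologous exon averaged 0.933 in Rbfox1 of muscle, and in Rbfox3 it averaged 0.987 in cortex and 0.995 in cerebellum.

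**Figure D1:**
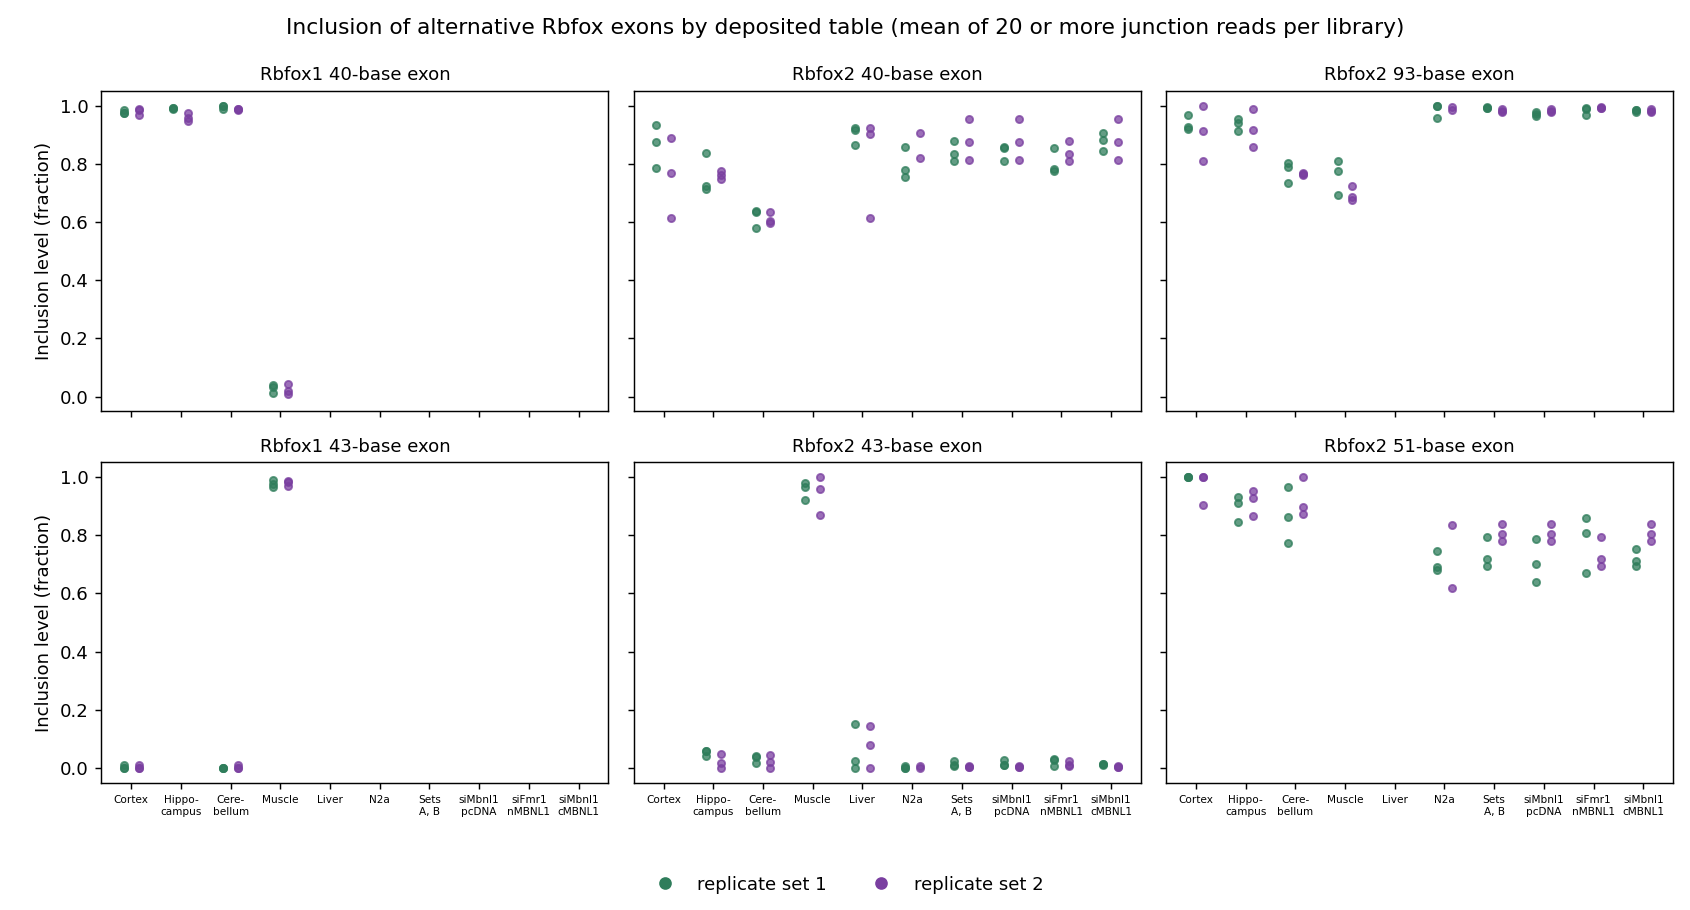
Inclusion level (fraction) of 6 alternative exons of Rbfox1 and Rbfox2 in each library, for every deposited table with a mean of 20 or more junction reads per library in both replicate sets (the last 4 columns are the co-transfection tables, named by their set 1, with shared sets A and B the siNT pcDNA and siFmr1 pcDNA libraries, not told apart). Points are libraries, coloured by replicate set; the 40-base exon of Rbfox1 is near 0.98 in cortex and 0.026 in muscle, and the 43-base exon shows the opposite.

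Nearer the start of the gene, a 51-base coding exon of Rbfox2 at chr15:77231387-77231437 averaged 0.984 in cortex, 0.906 in hippocampus, 0.895 in cerebellum, 0.713 in the first N2a experiment and 0.757 to 0.772 in the co-transfection tables. The co-transfection libraries (0.638 to 0.859) did not reach those of cortex (0.905 to 1), and the libraries of hippocampus and cerebellum overlapped both. The exons of the other members were close to constitutive. The 72-base exon of Nova1, by which its long and short proteins differ, averaged 0.942 in cerebellum, 0.961 in cortex, 0.979 in hippocampus and up to 0.996 in N2a. The 167-base exon of Nova2 (chr7:18950453-18950619) averaged 0.947 to 0.977 over 4 co-transfection tables, and 4 exons of Qk with enough reads in 3 or more tables lay between 0.986 and 0.999. The Nova1 exon is printed with its YCAY tetramers in capitals (TCAT; with another last letter TCAC; with another first letter CCAT; with both CCAC), since NOVA proteins bind them; it lies at chr12:46713498-46713569 on the minus strand.
Nova1 72-base exon: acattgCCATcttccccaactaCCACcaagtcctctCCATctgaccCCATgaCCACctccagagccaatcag
It held 5 such tetramers, counted on the transcript strand only because the protein binds RNA, and 13 of 1296 coding exons of 72 bases (1%) held as many or more, while 67.9% held at least 1. A match of letters is a description and not a binding site.

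Transcript levels of the members also differed between tissues. TPM, the transcript abundance relative to all transcripts of a library, is scaled by transcript length, so it was used to set genes side by side; tables were normalized separately, and levels from different tables were set side by side with no test. In tissue, fewer cells of a type and less RNA per cell cannot be told apart. Rbfox3 was listed in the brain table and, at up to 15.61 normalized counts, in the co-transfection table. Its WT TPM was 310.5, 344.3 and 376.2 in cerebellum, 240.9 to 289.1 in cortex and 186.3 to 197.5 in hippocampus, with no overlap between regions. Rbfox1 was at 231.5 ± 14.6 TPM (SD, n = 3) in WT cortex, 229.7 ± 7.45 in hippocampus, 174.3 ± 7.19 in cerebellum and 82.69 ± 7.91 in muscle. Cortex and hippocampus libraries overlapped, and cerebellum and muscle each stood apart below them. N2a cells of the siNT group held 0.41 and 0.24 TPM of Rbfox1.

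Rbfox2 and Qk were listed in every table. Rbfox2 TPM in WT was 137.9 ± 3.16 (SD, n = 3) in cerebellum, 116.8 ± 5.21 in cortex, 109.2 ± 3.2 in hippocampus, 26.01 ± 1.54 in muscle, 7.973 ± 2.13 in liver and 4.633 ± 0.499 in testis. Only cortex and hippocampus overlapped in that order, and the 2 siNT libraries of N2a, at 98.96 and 36.79, lay between hippocampus and muscle. Qk had the highest mean of the listed members in testis, muscle and liver, at 91.48 ± 1.84, 88.55 ± 9.22 and 23.87 ± 5.87 TPM, against 220 to 286.8 in the 3 brain regions; in muscle its libraries overlapped those of Rbfox1. Its testis and muscle libraries overlapped, as did those of cerebellum with cortex and of cortex with hippocampus.

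The Nova genes were lower than the Rbfox genes and Qk per length in each brain region. Nova1 WT TPM was 51.24 ± 2.48 (SD, n = 3) in cerebellum, 41.18 ± 2.49 in cortex and 18.6 ± 2.38 in hippocampus. It was 1.443 ± 0.0971 in muscle and 0.48 ± 0.0964 in testis. Nova2 ran the other way within the brain, at 39.42 ± 1.44 in hippocampus, 33.67 ± 3.2 in cortex and 22.02 ± 0.964 in cerebellum, and was at 2.607 ± 0.197 in testis, 0.88 ± 0.421 in muscle and 0.2233 ± 0.0751 in liver. Neighbouring tissues in each of these 2 orders did not overlap. The first N2a experiment had 11.72 and 1.67 TPM of Nova1 and 26 and 10.72 of Nova2 in its 2 siNT libraries, a spread that overlapped cerebellum for Nova2.

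**Figure D2:**
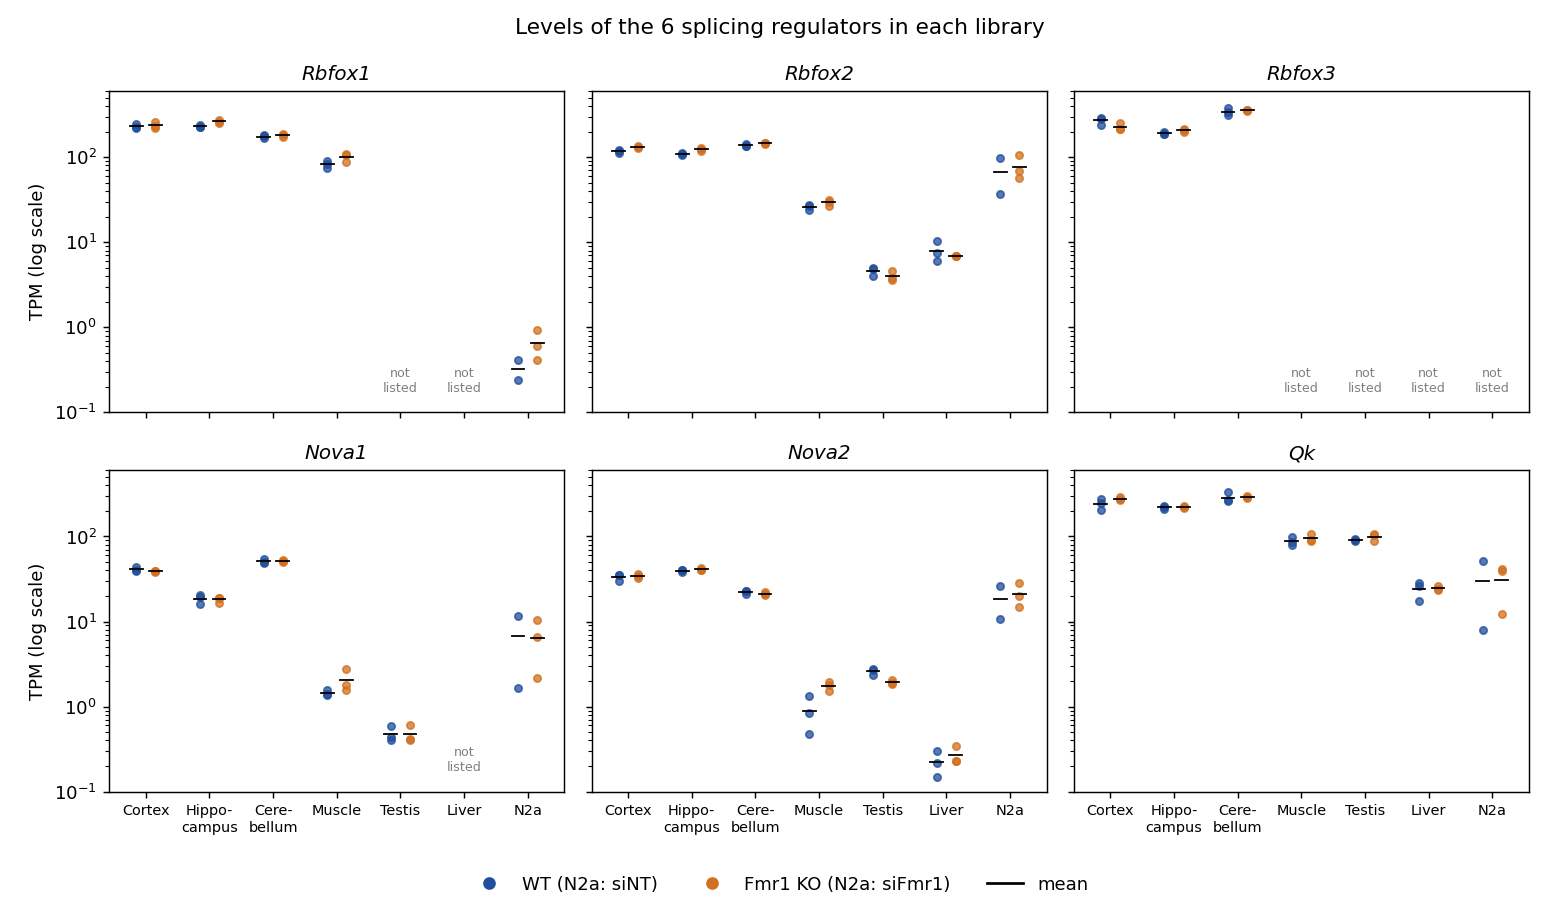
TPM on a log axis for each member in each library of 6 tissues and the first N2a experiment, WT or siNT in blue and Fmr1 KO or siFmr1 in orange, lines at the mean. Rbfox3 is listed only for the 3 brain regions, Rbfox2 and Qk have points in every column, and Nova1 is lowest of the brain regions in hippocampus (18.6 TPM in WT).

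The differences between WT brain regions were tested with edgeR's quasi-likelihood test with Benjamini-Hochberg adjustment over 15239 genes, on counts scaled to library size (CPM). Nova1 had 2 differences of more than 1 on the log2 scale, both with hippocampus. Its CPM was 110.5, 118.3 and 104.7 in cortex, 55, 52.24 and 43.01 in hippocampus and 126, 124.7 and 132.8 in cerebellum. Every hippocampus library was below every library of the other regions. The log2 difference was 1.15 (SE 0.09, adjusted p = 1.39e-06 by edgeR) for cortex against hippocampus and -1.35 (SE 0.09, adjusted p = 6.41e-08) for hippocampus against cerebellum. Between cortex and cerebellum it was -0.20 (SE 0.08, adjusted p = 0.0511 by edgeR), called in 5 of 14 alternatives. Nova2, its paralog, had 115.9, 115.8 and 96.72 CPM in cortex, 130, 130.1 and 123.2 in hippocampus and 68.12, 68.59 and 61.84 in cerebellum. Cerebellum libraries were the lowest with no overlap, by 0.95 (SE 0.07, adjusted p = 4.55e-07 by edgeR) against hippocampus and 0.73 (SE 0.07, adjusted p = 4.61e-06) against cortex.

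**Figure D3:**
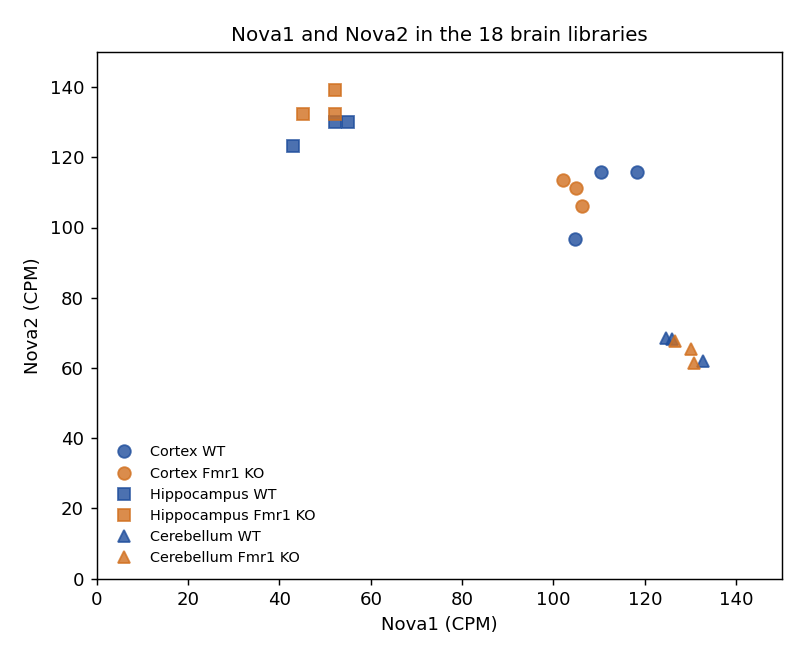
Nova2 against Nova1 in CPM for the 18 brain libraries, with shape for region and colour for genotype. Hippocampus libraries lie at low Nova1 and high Nova2, cerebellum libraries at high Nova1 and low Nova2, and WT and Fmr1 KO points of a region lie together.

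Of the 6 members, 3 passed the test between cortex and hippocampus, where 43.4% of all genes did; 4 passed between cortex and cerebellum, where 67.9% did; and all 6 passed between hippocampus and cerebellum, where 68% did. Rbfox3 was 0.50 higher in cortex than in hippocampus and 0.76 lower in hippocampus than in cerebellum on the log2 scale (adjusted p = 0.000831 and 1.15e-05 by edgeR). Rbfox1 was 0.47 higher in cortex and 0.48 higher in hippocampus than in cerebellum (adjusted p = 1.43e-05 and 1.17e-05). Rbfox2 was 0.22 lower in hippocampus than in cerebellum (adjusted p = 0.00194), called in all 14 alternatives. Some other small differences were lost when a library was left out. The call on Nova2 between cortex and hippocampus (log2 difference -0.22) was lost without cortex WT 3, hippocampus WT 1 or hippocampus WT 2, with adjusted p up to 0.0898 by edgeR. For cortex against cerebellum, Rbfox3 (-0.26) was lost without cortex WT 3, cerebellum WT 1 or cerebellum WT 2, and Rbfox2 (-0.13) was called in 5 of 14 alternatives. Qk between hippocampus and cerebellum (-0.27) was lost without hippocampus WT 2, hippocampus WT 3 or cerebellum WT 3. The summed CPM of 10 neuron markers also moved with region, from 10200 to 11000 in WT cortex, 7620 to 8260 in hippocampus and 6750 to 6950 in cerebellum, and their part in these differences was not tested.

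Across the 18 brain libraries, which share 1 table and fall into 3 regions, the genes whose log2 CPM was most like that of each member were found among 11562 genes with a mean of at least 5 CPM. For Nova1 they were Bend6 (Pearson r = 0.994), Cacnb4 (0.993) and Ttc39b (0.991). R3hdm4 (0.992), Celf3 (0.991) and 2900026A02Rik (0.99) were most like Nova2. Ndrg3 (0.977), Tagln3 (0.974) and Scrt1 (0.972) were most like Rbfox3, and Ccdc32, Ppp3ca (both 0.964) and Arl15 (0.961) most like Rbfox1. Likeness was lower for Qk, with 2010315B03Rik (0.949), Serbp1 (0.936) and Zfp958 (0.931), and for Rbfox2, with Agfg1 (0.876), Kcnj16 (0.874) and Nkap (0.869). These correlations describe the differences between regions and carry no test.

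In Fmr1 KO tissue edgeR within each tissue called a member only in testis. It called 0.0203% (cortex) to 4.27% (testis) of all genes, so few calls do not set the members apart. Fmr1 itself fell in 5 of the 6 tissues, for example from 123.8 ± 5.4 to 31.63 ± 3.3 CPM (SD, n = 3) in cortex; in muscle it was at 12, 17.58 and 14.18 in WT and 8.054, 10.21 and 10.3 in KO (adjusted p = 0.0734 by edgeR). Total counts per library were 26264368 to 41384652 in brain, 13230785 to 16168225 in liver, 13934559 to 15386794 in muscle and 13752391 to 15879775 in testis. The markers of each labelled tissue were present: all 10 neuron markers in the brain regions, 6 of 6 hepatocyte markers in liver, 8 of 8 muscle fibre markers in muscle and 7 of 7 germ cell markers in testis had a mean of at least 1 CPM.

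In cortex, 0 of 6 members passed edgeR's test, where 0.0203% of genes did. Rbfox2 and Rbfox3 had an unadjusted p under 0.05, as did 3110 of all 14802 genes tested. Rbfox3 was at 329.3, 319 and 270.1 CPM in WT and 239.6, 234.5 and 283.7 in KO. The genotypes overlapped through WT replicate 3 and KO replicate 3, and the log2 difference was -0.28 (SE 0.09, adjusted p = 0.145 by edgeR). It was called by DESeq2 (adjusted p = 0.0424), by edgeR without cortex WT 3 (0.0466) and by edgeR in a fit of all 18 brain samples (0.0483). Rbfox2 was at 307.4, 298.9 and 281 CPM in WT and 323.2, 325.4 and 344.1 in KO, with no overlap and a difference of 0.16 (SE 0.05, adjusted p = 0.138 by edgeR; 0.0428 in the fit of 18 samples).

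In hippocampus, 0 of 6 members passed, where 0.209% of genes did. An unadjusted p under 0.05 was found for 3 members and for 1852 of all 14843 genes. Rbfox1 was at 375.3, 389.8 and 376.6 CPM in WT and 419.1, 458.7 and 433.5 in KO, a log2 difference of 0.20 (SE 0.05, adjusted p = 0.181 by edgeR). Rbfox2 was at 288.5, 271.7 and 274.8 in WT and 321.9, 331.8 and 298.4 in KO, a difference of 0.19 (SE 0.05, adjusted p = 0.224). The KO libraries were above all WT libraries for these 2 genes, and also for Rbfox3 (0.13, adjusted p = 0.302), and DESeq2 called Rbfox1 (adjusted p = 0.00692) and Rbfox2 (0.0261). The sum of 9 oligodendrocyte markers was 5610 to 6060 CPM in hippocampus WT and 4660 to 4800 in KO, and its part in these differences was not tested. In cerebellum, 0 of 6 passed (0.226% of genes did, and DESeq2 called 0), and Rbfox2 alone of the members had an unadjusted p under 0.05 (1276 of all 14627 genes did), with 316.2, 326.3 and 328.8 CPM in WT and 341.1, 351.7 and 349.7 in KO (0.11, SE 0.04, adjusted p = 0.489 by edgeR). Rbfox2 was thus higher in every KO library than in every WT library in each of the 3 regions, by 0.11 to 0.19 on the log2 scale, without a call in any region by edgeR within the region.

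The difference between regions in the genotype effect was tested directly. It was not called for any member (0 of 6 in each of 3 contrasts, with 0%, 0% and 0.00645% of all genes called, and 0 members by DESeq2). The largest was Rbfox3, -0.41 (SE 0.12, adjusted p = 0.298 by edgeR) for cortex against hippocampus and -0.34 (SE 0.12, adjusted p = 0.2) for cortex against cerebellum, the only 2 with an unadjusted p under 0.05, which 1561 and 2349 of all 15504 genes had in these contrasts. Without cortex WT 3 both were called, with adjusted p of 0.04 and 0.0449.

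By edgeR within each tissue, testis alone had a called member. Of the 4 listed there 1 passed and was lower in KO, where 4.27% of genes passed and 2.28% were lower. DESeq2 called 0 members in testis, 1 in cortex and 2 in hippocampus (470, 904 and 247 of all genes). Nova2 fell, from 11.39, 13.27 and 13.68 CPM in WT to 10.4, 9.23 and 9.009 in KO, with no overlap. The log2 difference was -0.42 (SE 0.13, adjusted p = 0.0472 by edgeR), and the counts behind it were 141 to 212 per library. It was called in 3 of 10 alternatives (adjusted p 0.0224 to 0.227) and lost with DESeq2, with the replicate block and without any of 5 of the 6 libraries, testis KO 1 being the exception. The sum of 8 Sertoli and Leydig cell markers was 2010 to 2560 CPM in testis WT and 1810 to 1940 in KO, while that of 7 germ cell markers was 9340 to 10200 and 9530 to 10300; their part in the Nova2 difference was not tested. Qk in testis was at 238.7, 254.1 and 255.7 CPM in WT and 248.1, 287.2 and 277.8 in KO (0.12, adjusted p = 0.306 by edgeR).

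In muscle, 0 of 5 listed members passed, where 4.04% of genes did, and DESeq2 called 0. Nova2 alone of the members had an unadjusted p under 0.05 (3281 of all 12688 genes did), with 2.804, 4.732 and 7.416 CPM in WT and 9.625, 7.656 and 8.451 in KO, a log2 difference of 0.79 (SE 0.29, adjusted p = 0.137 by edgeR). Its counts were 39 to 147 per library, and without muscle WT 3 it was called at 1.19 (adjusted p = 0.0456). Summed fibroblast and vessel markers (7 of 7 present) were at 1520 to 2130 CPM in muscle WT and 3080 to 4020 in KO, and summed muscle fibre markers at 134000 to 163000 and 117000 to 139000; their part in the Nova2 values was not tested. In liver, 0 of 3 listed members passed (0.411% of genes did), DESeq2 called 0, and none was under 0.05 before adjustment (1365 of all 11928 genes were). In muscle the mean of Rbfox2 was 26.01 TPM in WT and 29.37 in KO but 116.7 and 112.2 CPM, and that of Qk was 88.55 and 95.68 TPM but 295.6 and 273.1 CPM, so the direction of these 2 uncalled differences depended on the scale. The plot of fold changes by tissue shows these values with their standard errors.

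**Figure D4:**
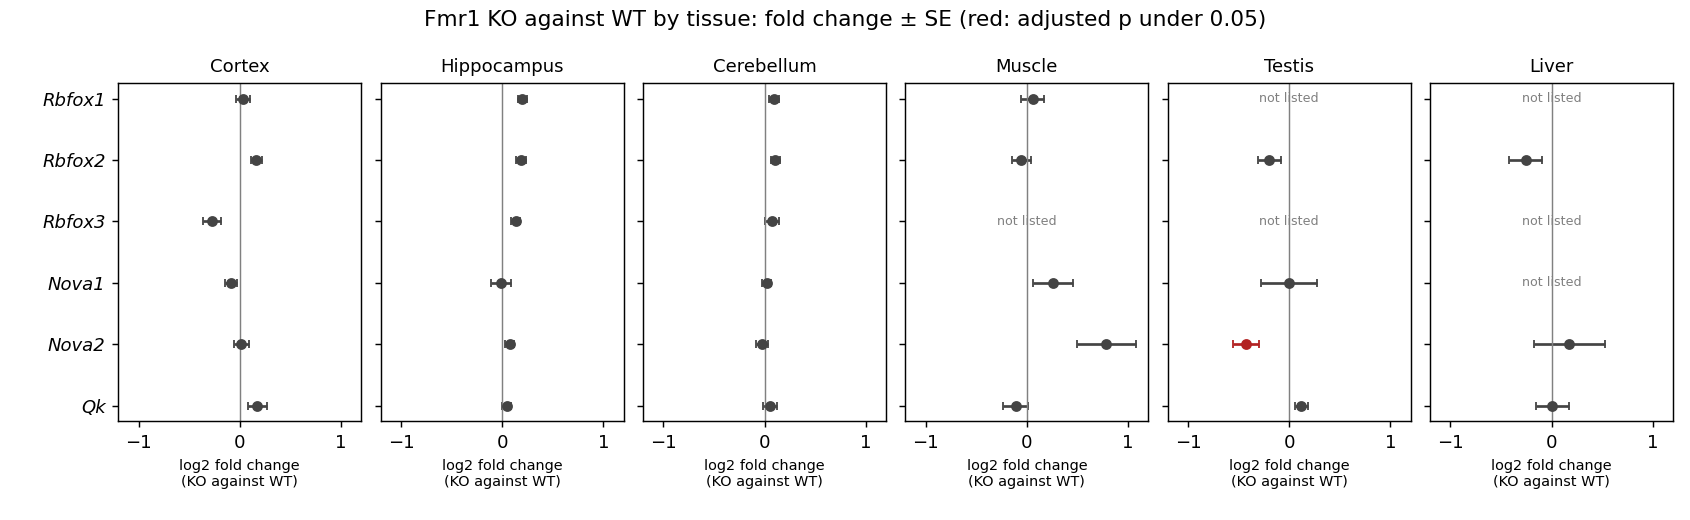
Log2 fold change of Fmr1 KO against WT for each member in 6 tissues, points with bars of 1 SE from edgeR's fit of the 6 libraries of each tissue, red where the adjusted p was under 0.05. Nova2 in testis (-0.42) is the red point, Rbfox2 lies right of 0 in the 3 brain regions, and Nova2 in muscle has a wide bar (0.79 ± 0.29).

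In the first N2a experiment the libraries did not separate by siRNA. Over 10325 genes, log2 CPM of siNT 1 correlated at 0.987 with siFmr1 1 and at 0.83 with siNT 2, and siNT 2 at 0.979 with siFmr1 3. Qk and Nova1 followed the same split. Qk was at 129.8 and 33.53 CPM in siNT and 100.4, 104.8 and 40.11 in siFmr1, and Nova1 at 43.66 and 10.72 in siNT and 37.18, 26.66 and 10.69 in siFmr1. For these 2 genes each group held high and low libraries. Rbfox1 was at 0.8652 and 0.9618 CPM in siNT and 1.328, 2.091 and 1.223 in siFmr1, with no overlap and a log2 difference of 0.75 (SE 0.54, adjusted p = 1 by edgeR). Of the 5 listed members 0 passed edgeR's test (0% of genes did, and DESeq2 called 0), and 0 members and 47 of all 12187 genes were under 0.05 before adjustment.

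In the co-transfection experiment Nova1 and Qk were lower in all 4 groups with a knockdown than in siNT pcDNA. The deposited values are normalized counts whose reads could not be recovered, so limma was used on log2(normalized count + 1) over 16242 genes, all 15 libraries in 1 fit. Fmr1 was at 2819, 3604 and 2856 in siNT pcDNA and 587.5, 583.4 and 611.8 in siFmr1 pcDNA. Mbnl1 was at 4410, 5017 and 3759 in siNT pcDNA, 1408, 1538 and 1509 in siMbnl1 pcDNA and up to 23340 where an MBNL1 plasmid was added. These values follow the labels. The 4 comparisons with siNT pcDNA share its 3 libraries, which varied more than other groups (median SD of a gene 0.189 on the log2 scale, against 0.0708 to 0.0842), so their results are given side by side and not counted as separate support.

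Nova1 had 1757, 2021 and 1639 normalized counts in siNT pcDNA. It had 971, 983.4 and 952.9 in siFmr1 pcDNA and 832.1, 965.7 and 1066 in siFmr1 nMBNL1. It had 1218, 1395 and 1358 in siMbnl1 pcDNA and 1282, 1330 and 1272 in siMbnl1 cMBNL1. The groups formed 3 levels with no overlap: siNT highest, both siMbnl1 groups in the middle, both siFmr1 groups lowest. Against siNT pcDNA the log2 difference was -0.89 (SE 0.09, adjusted p = 3.15e-06 by limma) for siFmr1 pcDNA and -0.44 (SE 0.09, adjusted p = 0.00175) for siMbnl1 pcDNA, the latter called in all 11 alternatives. Tested directly, siFmr1 pcDNA was below siMbnl1 pcDNA by -0.45 (SE 0.09, adjusted p = 0.00138 by limma), a call kept in all 11 alternatives.

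Qk followed the same order. It had 3910, 5104 and 3894 normalized counts in siNT pcDNA, 2908, 2913 and 2699 in siFmr1 pcDNA and 2630, 2913 and 2846 in siFmr1 nMBNL1. It had 3297, 3286 and 3433 in siMbnl1 pcDNA and 3226, 3496 and 3375 in siMbnl1 cMBNL1. No siNT library overlapped any other group. The log2 difference from siNT pcDNA was -0.59 (SE 0.09, adjusted p = 8.8e-05 by limma) for siFmr1 pcDNA and -0.35 (SE 0.09, adjusted p = 0.00563) for siMbnl1 pcDNA, the second lost in the fit of the 2 groups alone (0.0736). Between siFmr1 pcDNA and siMbnl1 pcDNA it was -0.23 (SE 0.09, adjusted p = 0.0487 by limma), which was called in 4 of 11 alternatives and lost without any 1 of the 6 libraries.

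Rbfox2 had 5013, 6652 and 5614 normalized counts in siNT pcDNA and 7042, 7277 and 7142 in siFmr1 pcDNA. It rose in siFmr1 pcDNA by 0.32 (SE 0.08, adjusted p = 0.00403 by limma), a call lost only in the fit of the 2 groups alone (0.0699). In siMbnl1 pcDNA, at 6672, 6535 and 6666, it overlapped siNT replicate 2 (0.21, adjusted p = 0.047), a call kept in 3 of 11 alternatives, and in siMbnl1 cMBNL1 it was at 6788, 6781 and 6962 (0.26, adjusted p = 0.017), kept in 8 of 11. Rbfox1 was low in all groups: 10.76, 17.01 and 8.921 in siNT pcDNA, 29.02, 24.51 and 26.93 in siFmr1 pcDNA and 28.89, 21.17 and 22.7 in siFmr1 nMBNL1. The siFmr1 groups did not overlap siNT, and the difference was 1.12 (SE 0.37, adjusted p = 0.0254 by limma) and 0.97 (SE 0.37, adjusted p = 0.0453); the first was lost without siNT pcDNA 1 or 3 or siFmr1 pcDNA 1 or 3, and the second was called in 3 of 11 alternatives. In siMbnl1 pcDNA Rbfox1 was at 8.658, 8.012 and 23.78, all below siFmr1 pcDNA, with replicate 3 above every siNT library. The difference of siFmr1 pcDNA from siMbnl1 pcDNA was 1.10 (SE 0.37, adjusted p = 0.0279 by limma), called in 6 of 11 alternatives and lost without siFmr1 pcDNA 1, 2 or 3 or siMbnl1 pcDNA 1 or 2.

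**Figure D5:**
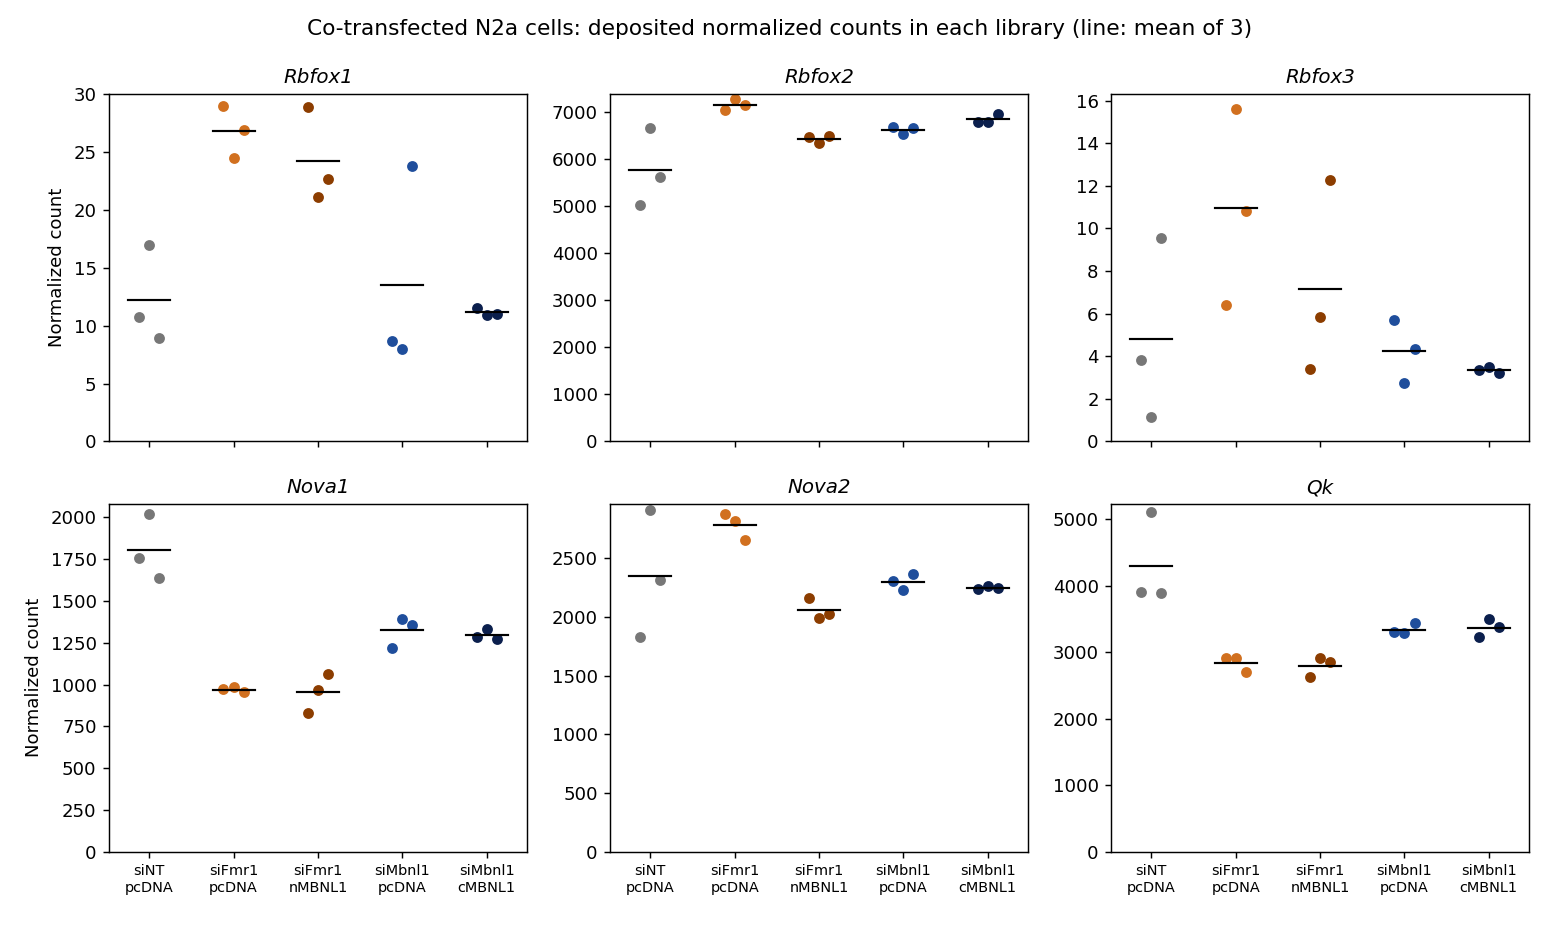
Deposited normalized counts of the 6 members in the 15 co-transfection libraries, axes from 0, points for libraries and lines for means of 3. Nova1 and Qk are highest in siNT pcDNA and lowest in the 2 siFmr1 groups, Rbfox1 is highest in the siFmr1 groups at under 30 normalized counts, and the Nova2 values of siNT pcDNA span those of all other groups.

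In counts, 4 of 6 members passed for siFmr1 pcDNA against siNT pcDNA, where 37% of genes did. For siMbnl1 pcDNA against siNT pcDNA 3 passed (32.8% of genes), for siFmr1 nMBNL1 3 (41.1%), for siMbnl1 cMBNL1 3 (33.7%), and for siFmr1 pcDNA against siMbnl1 pcDNA 3 (35.3%). Adding MBNL1 moved no member past the threshold: 0 of 6 passed for siFmr1 nMBNL1 against siFmr1 pcDNA (1.76% of genes; 1 member and 2901 of all 16242 genes with an unadjusted p under 0.05) and 0 of 6 for siMbnl1 cMBNL1 against siMbnl1 pcDNA (2.24%; 0 members and 3149 genes with an unadjusted p under 0.05), both by limma; with only the 2 groups compared the first count was 2. The member of that lower p was Nova2, with 2879, 2823 and 2658 normalized counts in siFmr1 pcDNA and 2159, 1993 and 2025 in siFmr1 nMBNL1. These did not overlap, and the difference was -0.44 (SE 0.11, adjusted p = 0.059 by limma, 0.000323 with only the 2 groups). Nova1 differed by -0.03 (SE 0.09) and Qk by -0.02 (SE 0.09) in the same contrast, and by -0.03 and 0.01 (SE 0.09 each) between cMBNL1 and pcDNA in siMbnl1 cells. Rbfox3 stayed at 1.127 to 15.61 normalized counts, and no contrast called it. Summed neuron markers were at 45100 to 48200 in siNT pcDNA, 58100 to 59600 in siFmr1 pcDNA and 44600 to 50400 in siMbnl1 pcDNA (9 of 10 markers at a mean of 1 or more in each of these groups, with Gad1 at 0), and their part in these differences was not tested.

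Few skipped exon events of the members were called between the sets of a table, as few were among all events. With 7 to 37 member events per table, counts of 0 or 1 do not set the members apart. An event was called where the deposited false discovery rate (FDR) was under 0.05 and inclusion differed by at least 0.1. By that rule 0 of 15 member events were called in cortex (0.989% of all events were), 0 of 20 in hippocampus (0.233%), 0 of 20 in cerebellum (0.146%), 0 of 7 in liver (1.19%) and 0 of 16 in muscle (1.36%). In testis 1 of 9 was called (0.69%), and in the first N2a experiment 0 of 19 (0.825%). Each co-transfection table compares a pair of groups, worked out below: 0 of 26 were called (2.11%) between shared sets A and B, 0 of 22 (2.36%) for siMbnl1 pcDNA, 0 of 37 (1.45%) for siFmr1 nMBNL1 and 1 of 29 (2.35%) for siMbnl1 cMBNL1. A re-test of the deposited junction reads with a quasi-binomial model called 0 member events in every table. Of all events it tested, it called 0% in cortex, hippocampus, cerebellum and liver. It called 0.0999% in muscle, 0.0233% in testis, 0.00442% in the first N2a experiment and 0.521% to 0.813% in the co-transfection tables. These member counts of 0 therefore do not set the members apart from all events.

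Reads identified the co-transfection sets in part. By elimination from the labels, set 1 of a table each was siMbnl1 pcDNA, siFmr1 nMBNL1 and siMbnl1 cMBNL1. The headers name no sample, and shared reads cannot tell these sets apart. Exon results given under these names therefore rest on that assignment. The remaining table compared 2 sets that recur in the others, called here shared set A (its set 1) and shared set B (its set 2). Set A was identical, read for read, to the comparison set of siFmr1 nMBNL1 over 44006 shared events, and set B to that of siMbnl1 pcDNA over 43530 and that of siMbnl1 cMBNL1 over 44772. The 2 shared sets are siNT pcDNA and siFmr1 pcDNA, and which is which is not resolved here.

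Both called events were the Rbfox2 43-base exon whose sequence is shown above. In siMbnl1 cMBNL1, measured against the exon at 77097940-77098072 and so among transcripts without the 40-base exon, inclusion in the authors' deposited table was 0.146, 0.091 and 0.301, and in shared set B 0, 0.019 and 0.016. All siMbnl1 cMBNL1 libraries were above all of shared set B, by 0.168 (deposited FDR 4.41e-07; re-test FDR 0.0519). The other groups had intermediate means, with 0.094, 0.154 and 0.061 in siMbnl1 pcDNA (difference 0.091, deposited FDR 0.000365), 0.117, 0.1 and 0.027 in siFmr1 nMBNL1, and 0.078, 0.069 and 0.042 in shared set A (difference from set B 0.051, deposited FDR 0.0346). Inclusion rested on 9, 7 and 20 reads in siMbnl1 cMBNL1 and on 0, 2 and 1 in shared set B, and the same table gave the 40-base exon at 0.936, 0.964 and 0.854 against 1, 0.981 and 1 when measured between the 43-base exon and that flank, an entry that shares these reads. Over the more common flanks, with the 40-base exon present, the 43-base exon was at 0.013, 0.014 and 0.01 in siMbnl1 cMBNL1. In testis the exon was at 0.19, 0.342 and 0.115 in set 1 and 0, 0.069 and 0 in set 2 (difference 0.193, deposited FDR 0.0215), from a mean of 12.3 and 20 junction reads per library, too few in set 1 for the re-test.

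Smaller differences with low FDR also fell in Rbfox2. Its 89-base coding exon at chr15:77086067-77086155 was at 0.952, 0.933 and 0.967 in siMbnl1 cMBNL1 against 1 in each library of shared set B (difference -0.049, deposited FDR 5.47e-10, re-test FDR 0.000923). It was also at 0.954, 0.958 and 0.971 in siFmr1 nMBNL1 against 1 in each library of shared set A (-0.039, deposited FDR 3.92e-06, re-test FDR 0.000565). Both groups with an MBNL1 plasmid thus skipped it at a low level that their comparison sets did not show, below the 0.1 threshold. The 51-base exon was at 0.695, 0.751 and 0.711 in siMbnl1 cMBNL1 and 0.84, 0.78 and 0.804 in shared set B (-0.089, deposited FDR 0.0385, re-test FDR 0.186).

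Genes of the same pathways were followed as lists. Between WT cortex and cerebellum, where 33.4% of genes were higher and 34.6% lower, 1 of 8 partners in the LASR complex, in which RBFOX proteins are assembled with other RNA-binding proteins, was higher and 6 were lower, with Hnrnpm at -0.82, Ddx5 at -0.64 and Hnrnph1 at -0.62 (adjusted p = 2.09e-07, 4.06e-06 and 3.5e-07 by edgeR; list median -0.34). Of 8 STAR and KH relatives 1 was higher and 5 lower. The higher gene was Khdrbs3, a STAR protein also called T-STAR, at 3.58 (adjusted p = 4.92e-12). Of 12 listed genes with known RBFOX-regulated exons 5 were higher and 3 lower, led by Mef2c, a neuronal and muscle transcription factor, at 4.48. Of 14 with known NOVA-regulated exons 9 were higher and 3 lower, led by the guidance receptors Dcc (2.61) and Robo2 (2.20) and the glycine receptor subunit Glra2 (2.24).

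In Fmr1 KO tissue, 0 genes of these 5 lists were called by edgeR but for 2: Fn1, encoding fibronectin, was higher in muscle (0.95, adjusted p = 0.0262), where the fibroblast and vessel markers above were also higher, and Mag, encoding a myelin glycoprotein, was lower in hippocampus (-0.46, adjusted p = 0.041), where the oligodendrocyte markers, of which it is a member, were also lower. Of all genes, 4.04% were called in muscle, 0.209% in hippocampus and from 0.0203% (cortex) to 4.27% (testis) over the tissues. In siFmr1 pcDNA against siNT pcDNA, where 19.5% of genes were higher and 17.5% lower by limma, 1 of 8 LASR partners was higher (Hnrnph1, 0.23) and 0 lower. Of 11 genes with RBFOX-regulated exons 1 was higher, the NMDA receptor subunit Grin1 (adjusted p = 9.61e-05 by limma), and 2 lower, Ptbp2 (-0.40), a neuronal splicing repressor, and the calcium channel subunit Cacna1c (-0.21). Of 12 with NOVA-regulated exons Kcnj6, a potassium channel, was higher (1.55) and Mapk9 (-0.32) and Aplp2 (-0.21) lower. Among genes with QK-regulated exons Nfasc, a cell adhesion gene, was higher (3.70, adjusted p = 3.22e-05 by limma).

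By the deposited rule 0 events of genes with known RBFOX- or NOVA-regulated exons were called in any tissue table or in the first N2a experiment, of 21 to 57 and 16 to 51 events per table. For QK, 1 of 7 was called in liver and 0 elsewhere: the 47-base exon of Sirt2, a deacetylase gene, at 0.196, 0.078 and 0.051 in set 1 and 0.355, 0.26 and 0.521 in set 2 (deposited FDR 0.00211, re-test FDR 0.121). In the co-transfection tables, in the order sets A and B, siMbnl1 pcDNA, siFmr1 nMBNL1 and siMbnl1 cMBNL1, the called events were 5 of 100, 6 of 113, 3 of 102 and 11 of 129 for RBFOX genes, 3 of 92, 5 of 91, 1 of 76 and 3 of 110 for NOVA genes, and 7 of 53, 6 of 56, 0 of 67 and 4 of 62 for QK genes, beside the percentages of all events given above. The re-test called 1, 2, 3 and 4, then 0, 1, 1 and 1, then 5, 2, 0 and 2 of them, where it called 0.726%, 0.813%, 0.521% and 0.728% of all events it tested.

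Single exons showed how the groups lay. The 24-base exon of Clasp1, a microtubule-binding protein with a known NOVA-regulated exon, at chr1:118541675-118541698, was at 0.522, 0.496 and 0.547 in shared set B. It was at 0.704, 0.686 and 0.646 in shared set A and 0.733, 0.737 and 0.734 in siMbnl1 pcDNA. In siFmr1 nMBNL1 it was at 0.365, 0.546 and 0.497, below all of shared set A (difference -0.209, deposited FDR 0.00452, re-test FDR 0.0355) and overlapping shared set B. The 118-base exon of the synaptic gene Snap25 (chr2:136769743-136769860) was at 0.716, 0.69 and 0.68 in shared set A and 0.834, 0.856 and 0.792 in shared set B (-0.132, deposited FDR 1.66e-07, re-test FDR 0.000674). In Enah, an actin regulator, the 111-base exon at chr1:181921658-181921768 was at 0.407, 0.411 and 0.397 in siFmr1 nMBNL1 and 0.58, 0.57 and 0.549 in shared set A (-0.161, deposited FDR 1.72e-07, re-test FDR 4.27e-07). The 24-base exon of Bin1, a membrane-bending protein with a QK-regulated exon in muscle, was at 0.569, 0.437 and 0.687 in siMbnl1 cMBNL1 and 0.217, 0.129 and 0.15 in shared set B (0.399, deposited FDR 2.54e-06, re-test FDR 0.021). With the empty plasmid, siMbnl1 pcDNA was at 0.435, 0.518 and 0.53, overlapping siMbnl1 cMBNL1 (0.329 from set B, deposited FDR 0.000185, re-test FDR 0.0896). MBNL1 is known to act on exons of some of these genes as well, and which regulator acts on them was not tested.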

How the data were processed

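Members, gene lists and tests were chosen with earlier results of these data known. The 5 gene tables other than the co-transfection one hold whole-number counts and TPM deposited by the authors; the co-transfection table holds a signal, the authors' deposited normalized counts. The submitters' processing notes name CASAVA, FastQC 0.11.8, Trimmomatic 0.39, Bowtie2 2.3.5, STAR 2.6.1, RSEM 1.3.1, DESeq2 1.16.1 and GRCm38 (mm10), with no role or order. The authors' deposited p-values and FDR of skipped exons come in the rMATS table format, per the file headers. In muscle 4 columns match no sample and were not used.

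Counts were tested with edgeR 4.0.16 (filterByExpr, TMM factors, quasi-likelihood, Benjamini-Hochberg, threshold 0.05): 6 libraries per tissue, 9 WT brain libraries for regions, 18 for interactions. DESeq2 1.42.0 was an alternative. The co-transfection signal was analysed after log2 transformation with a pseudocount of 1, keeping means of 1 or more, by limma 3.58.1 with a trended variance; its fold changes understate those of low genes. Skipped exons used the deposited FDR with a difference of at least 0.1. Junction reads of events with a mean of at least 20 per library in each set were re-tested with a quasi-binomial model, its dispersion moderated along a trend in read number and kept at 1 or more. Scripts were tested on simulated data. Genes named are the 6 members, Fmr1, Mbnl1, up to 3 called genes per list and comparison, and 3 genes most like each member; exons named are called ones and the 8 with the widest range between tables with enough reads in 3 or more of them, with the 89-base exon of Rbfox2 and the 93-base exons of Rbfox1 and Rbfox3 added after their values were seen, and target exons the 2 of largest difference per list and table. Other alternatives were RLE factors, no filter, pseudocounts of 0.5 and 10, the replicate block, other sample sets and each library left out. Deviations of same-numbered libraries correlated at over 0.1 in every pair (0.103, 0.236 and 0.151) for siMbnl1 cMBNL1 against siMbnl1 pcDNA and in no other comparison with 3 pairs. The titles do not say that the numbers are pairs, and the main tests treated the number as a name. Exon sequences came from GENCODE transcripts; protein sequences were not used here. A result for 1 listed gene is not reported here.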

Additional observations from a re-analysis of the deposited data

How the results depend on the processing

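No called fold change of a member reversed in 368 alternatives of 30 called values: 305 kept direction and call and 63 kept direction without the call. Of 374 alternatives of counts of members or exons, 328 stayed within 1.5 times. With DESeq2 the members called in Fmr1 KO were 1 in cortex, 2 in hippocampus and 0 in testis (904, 247 and 470 of all genes), and the fit of 18 brain samples called 2 in cortex. With only the 2 groups compared, limma called 1 member for siMbnl1 pcDNA and 1 for siMbnl1 cMBNL1 against siNT pcDNA, 5 for siFmr1 pcDNA against siMbnl1 pcDNA and 2 for siFmr1 nMBNL1 against siFmr1 pcDNA. The replicate block, which pairs same-numbered libraries, called 0 members in testis. It left siMbnl1 cMBNL1 against siMbnl1 pcDNA, where same-numbered libraries correlated weakly (0.103 to 0.236), at 0. Elsewhere it kept counts within 1.5 times. The cause of these changes was not tested.

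Leaving out 1 library at a time gave 0 to 1 members in cortex, muscle and testis KO and 0 to 1 for the genotype effect in cortex against either other region. For WT regions the range was 2 to 4 for cortex against hippocampus, 2 to 5 for cortex against cerebellum and 5 to 6 for hippocampus against cerebellum. Against siNT pcDNA it was 3 to 5 for siFmr1 pcDNA, 2 to 3 for siMbnl1 pcDNA, 2 to 4 for siFmr1 nMBNL1 and 2 to 3 for siMbnl1 cMBNL1, and for siFmr1 pcDNA against siMbnl1 pcDNA it was 1 to 2. In the first N2a experiment leaving out a library turned the direction of Nova1 and Qk, which were not called.

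The called testis exon event had too few reads in set 1 for the re-test. The re-test could not call it, also with 1 prior dispersion (an alternative chosen after seeing the data) or with any library left out (0 to 0). Neither could the limit of 20 or more reads. Its difference of 0.193 lay below 0.2. These counts of 0 were fixed beforehand and say nothing about the call. The siMbnl1 cMBNL1 event was lost in the re-test (0), was called with 1 prior dispersion (FDR 0.0305), and gave 0 to 1 with a library left out. Its difference of 0.168 lay below 0.2 and could not be called there (0). At a difference of at least 0.05 the member events called were 1 of 26 between shared sets A and B (3.66% of all events), 2 of 22 in siMbnl1 pcDNA (4.18%) and 4 of 29 in siMbnl1 cMBNL1 (4.48%). A mean of 20 or more junction reads per library was reached by 3 of 7 member events in liver and 3 of 9 in testis, and Nova2 counts in muscle were 39 to 147 per library.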
